A study of Mus musculus with 12 samples.

Results

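The comparison described here set hearts of aged C57Bl/6 mice that had received spermidine against hearts of young mice of the same strain. The 8 arrays were chosen by their labels, and no measured value was used: 4 of the 12 arrays of the series came from spermidine-treated aged mice and 4 from young mice. The treated mice were 30 to 32 months old and had taken 3 mM spermidine in the drinking water since the age of 4 months. The young mice were 6 months old and had received no treatment, as had the aged mice of 30 to 32 months whose 4 arrays complete the series and serve here to show what differed from young hearts without treatment. All mice were kept under specific pathogen-free conditions on standard chow. The titles number the samples differently, but whether each came from its own animal is not stated, and p-values therefore cover no more than the spread among these arrays. Since no young mice received spermidine, the comparison joins the age difference and the treatment, and the 2 cannot be told apart in it. The sources used here give no sex, hour of collection, slide or scan date.

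Spermidine is a polyamine, a small positively charged metabolite that cells make from putrescine, take up from food and consume to modify the translation factor eIF5A. It is known as an inducer of autophagy, the process by which cells enclose and digest their own components. Ageing of the mouse heart is known for a growing tissue immune compartment, for secreted protease inhibitors and complement proteins, and for changes of ion channels and metabolic enzymes of the heart muscle cell. The question put to these arrays is which transcripts that distinguish an aged from a young heart still do so after spermidine from the age of 4 months.

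Values are log2 intensities of Illumina bead array probes, and a difference of 1 between groups corresponds to a doubling. A difference passed the threshold if its Benjamini-Hochberg adjusted p from the limma fit was below 0.05 over all 20573 probes tested. Arrays correlated across 6540 bright probes at r between 0.975 and 0.982 within treated hearts, between 0.950 and 0.981 within aged hearts and between 0.975 and 0.995 within young hearts. Mean intensity per array lay between 259 and 313. Ventricular markers stood at the same level in every group, with Myh6, the main myosin of the adult mouse heart, at a mean of 14.16 in treated, 14.17 in aged and 14.14 in young hearts. Transcripts of the airway stood apart on 2 arrays. Scgb1a1, the secretory protein of airway club cells, reached 11.47 on treated replicate 3 and 12.89 on young replicate 4, against 3.42 to 4.56 on the other 10 arrays. The summed intensity of the 12 measured airway markers, of 16 listed, was 76 to 3518 in treated, 57 to 100 in aged hearts and 90 to 10605 in young ones. The same arrays stood apart for other lists too: the adipocyte score was 0.92 on treated replicate 3 and 1.87 on young replicate 4, the B cell score 0.77 on treated replicate 3 and the T cell score 1.23 on young replicate 4. Aged replicate 1 stood apart for atrial genes, with a score of -1.62 against 0.00 to 0.37 on the other aged arrays. The part of these lists in the results was not tested. The surfactant genes Sftpa1, Sftpb and Sftpc were above the background limit on no array.

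In treated aged hearts 31 probes were higher (0.151% of the probes tested) and 2 were lower (0.00972%) than in young hearts, 33 or 0.16% in all. The 31 increases stood for 27 named genes and 2 unnamed probes, and the 2 decreases were Ddc and Nle1. The increases were led by the kallikrein Klk1b26, the chemokine Ccl8, the potassium channel Kcnk1, the macrophage lectin Cd209b and Csprs, with fitted log2 differences between 2.30 and 2.99. Treated and young hearts did not overlap for 1133 probes (5.51%), with the treated arrays above on 686 (3.33%) and below on 447 (2.17%). With arrays scaled to a common median in place of quantile normalization that split was 550 and 629, so the excess of higher values among non-overlapping probes depends on the scaling. Without the pair of arrays with airway transcripts, all 33 called probes kept their direction and moved by -0.24 to 0.16, and 11 of them passed the threshold with 3 arrays in each of those groups. These were the probes of Klk1b26, Ccl8, Kcnk1, Cd209b, Csprs, Prom2, Cds1, Skap2, Kcnc1 and Prkcq and 1 of the probes of Prkcz.

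**Figure D1:**
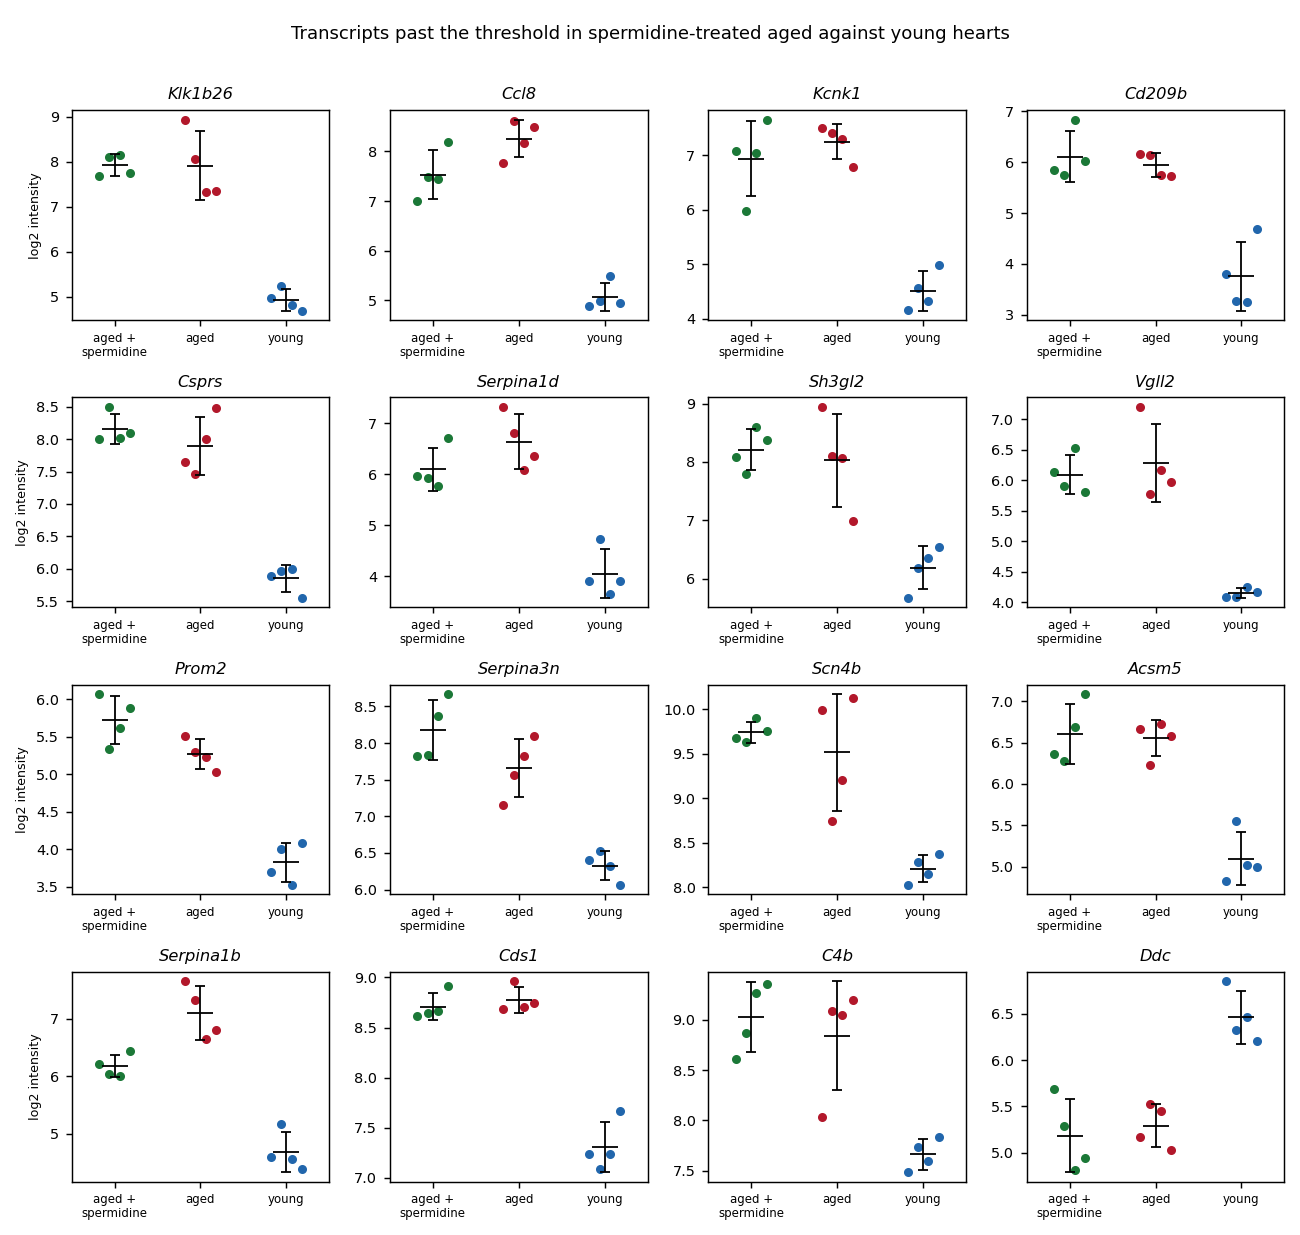
Log2 intensity (y axis) of each array for the 15 named genes with the largest increases and for Ddc, in aged hearts with spermidine, aged hearts and young hearts (x axis); points are arrays, and bars give the mean and SD of 4 arrays. Every treated array lies above every young array for the 15 increases and below every young array for Ddc. Treated and aged arrays overlap for each gene shown except Serpina1b, where the treated arrays (6.01 to 6.44) lie below the aged ones (6.65 to 7.66).

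Among secreted immune and inflammatory proteins, Ccl8, which attracts monocytes, stood at 6.99, 7.49, 7.45 and 8.19 in treated hearts, at 7.76, 8.61, 8.18 and 8.48 in aged hearts and at 4.88, 4.98, 5.49 and 4.95 in young hearts. All treated arrays were above all young arrays, and 3 of the 4 were below the lowest aged array. The difference from young was 2.46 (SE 0.25, adjusted p = 0.000600) with spermidine and 3.18 without it, and both comparisons share the young arrays. The direct difference between treated and aged hearts was -0.73 and did not pass (adjusted p = 0.457). Cd209b, a lectin with which macrophages bind sugar chains of microbes, stood at 5.85, 5.74, 6.83 and 6.02 in treated, 6.16, 6.14, 5.75 and 5.72 in aged and 3.81, 3.27, 3.26 and 4.70 in young hearts. It was at least 2.30-fold higher in treated hearts (log2 difference 2.35, adjusted p = 0.00584), since no young array exceeded the background limit. Its other probes differed by 0.38 and 1.12 and did not pass. Tlr7, an endosomal receptor for single-stranded RNA, was the tightest of the group, at 5.85 to 6.27 in treated, 5.88 to 6.12 in aged hearts and 5.08 to 5.22 in young ones (difference from young 0.91, SE 0.11, adjusted p = 0.00398). The Ccl8 promoter is shown because Ccl8 had the largest difference of the chemokines. These are the 250 bases before its start (RefSeq, build GRCm38.p6, chr11:82114935-82115184, plus strand), with the letters TATAAA in capitals. They occur 32 bases before the start and not on the reverse strand. Of 32851 promoters in the table, 2494 hold them on the forward strand, and 12.4% hold them on either strand.
Ccl8: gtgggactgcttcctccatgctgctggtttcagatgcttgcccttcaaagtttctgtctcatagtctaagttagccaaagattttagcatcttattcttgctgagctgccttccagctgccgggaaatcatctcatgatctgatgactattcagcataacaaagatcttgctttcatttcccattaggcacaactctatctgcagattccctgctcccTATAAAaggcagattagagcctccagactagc

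In whole tissue, more cells of a type and more RNA per cell cannot be told apart.

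The 3 called protease inhibitors of the serpin family rose by different amounts. Serpina1b and Serpina1d encode mouse antitrypsins, which are known mainly as liver products, and Serpina3n is a relative of human antichymotrypsin that rises in inflammation. Serpina1b stood at 6.22, 6.05, 6.01 and 6.44 in treated, 7.66, 7.32, 6.65 and 6.80 in aged and 4.60, 5.18, 4.56 and 4.39 in young hearts. Treated hearts thus lay above all young and below all aged arrays. Its difference from young was 1.5 (SE 0.22, adjusted p = 0.0138), against 2.42 without spermidine, and the direct difference between treated and aged hearts was -0.93 (adjusted p = 0.431). Its other probe differed from young by 1.64 and did not pass (adjusted p = 0.133). Serpina1d was at least 2.28-fold higher in treated than in young hearts (log2 difference 2.04, adjusted p = 0.0110), from values above the background limit on no young array, and its difference without spermidine was 2.59. Serpina3n ran the other way among the aged groups. It stood at 7.83, 7.84, 8.37 and 8.67 in treated, 7.15, 7.57, 7.83 and 8.10 in aged and 6.41, 6.52, 6.32 and 6.06 in young hearts, a difference from young of 1.85 with spermidine (SE 0.22, adjusted p = 0.00360) and 1.33 without it. The treated and aged arrays of Serpina3n overlapped, and their difference of 0.52 did not pass (adjusted p = 0.511).

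The 2 antitrypsin genes lie close together on chromosome 12 and share most of their promoter sequence. It is shown because both transcripts were higher in treated than in young hearts. Promoter bases do not show whether probes of such similar genes catch each other's RNA. Neither that nor a shared regulation was tested. The sequences are the 250 bases before the start of each gene from RefSeq in build GRCm38.p6, at chr12:103738190-103738439 and chr12:103773634-103773883, both read from the minus strand. The capitals mark the longest run that is identical in both, 64 bases, and over 241 aligned columns 92.5% were identical.
Serpina1b: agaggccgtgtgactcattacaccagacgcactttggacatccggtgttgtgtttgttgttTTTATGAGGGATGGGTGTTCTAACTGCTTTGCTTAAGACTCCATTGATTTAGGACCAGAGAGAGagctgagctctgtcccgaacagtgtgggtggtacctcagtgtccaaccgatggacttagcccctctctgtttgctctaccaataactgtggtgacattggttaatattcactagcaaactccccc
Serpina1d: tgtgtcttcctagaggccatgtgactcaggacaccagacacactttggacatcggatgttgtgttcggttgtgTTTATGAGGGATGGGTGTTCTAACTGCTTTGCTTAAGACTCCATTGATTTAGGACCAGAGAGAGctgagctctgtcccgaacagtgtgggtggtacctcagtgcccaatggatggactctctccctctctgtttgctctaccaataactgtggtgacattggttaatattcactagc

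Complement and matrix proteins formed a further group. C4b, a component of the classical complement pathway, stood at 8.62, 8.87, 9.27 and 9.36 in treated, 8.04, 9.09, 9.05 and 9.20 in aged and 7.49, 7.73, 7.59 and 7.84 in young hearts (difference from young 1.36, SE 0.24, adjusted p = 0.0407). C6, part of the membrane attack complex, passed by 1 probe (1.21, adjusted p = 0.0213) that exceeded the background limit on 1 treated, 2 aged and 0 young arrays, while its other probe differed by 0.49. Mmp3, a stromelysin that cleaves matrix proteins, was 1 of the 4 probes called against young hearts with spermidine but not without it. Its called probe stood at 6.75, 7.18, 7.54 and 7.19 in treated, 6.23, 6.66, 6.81 and 6.82 in aged and 5.62, 6.32, 6.12 and 5.55 in young hearts. The difference from young was 1.26 (adjusted p = 0.0279) with spermidine and 0.73 (adjusted p = 0.130) without it, and the difference between these aged groups was 0.53 and did not pass (adjusted p = 0.484). The remaining 2 probes of Mmp3 differed from young by 0.92 and 1.33 under spermidine and by 0.95 and 1.10 without it, and did not pass. On them the direct differences between treated and aged hearts were -0.02 and 0.23. The call of C4b passed in 4 of the 12 fits that left out 1 array and that of Mmp3 in 6.

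Called genes also included 3 ion channel subunits and 3 genes known from striated muscle. The lists of the contractile and calcium machinery held no call, with medians of -0.03 over 25 sarcomere genes (11 above 0) and -0.08 over 16 calcium handling genes (4 above 0). Kcnk1, a background potassium channel, stood at 7.08, 5.98, 7.04 and 7.64 in treated, 7.5, 7.41, 7.30 and 6.78 in aged and 4.17, 4.56, 4.32 and 4.99 in young hearts (difference from young 2.42, SE 0.30, adjusted p = 0.00378). Kcnc1, a voltage-gated potassium channel, was at least 1.22-fold higher in treated hearts (1.21, adjusted p = 0.00666), with no young array above the background limit, and its other probe differed by -0.01. Scn4b, an accessory subunit of voltage-gated sodium channels, stood at 9.63 to 9.91 in treated, 8.74 to 10.12 in aged hearts and 8.03 to 8.38 in young ones (1.53, adjusted p = 0.0215). The treated hearts of Scn4b lay within a narrow band inside the wide range of the aged hearts. Myl1, an essential light chain best known from fast skeletal muscle, was the brightest of these probes, at 12.77 to 13.14 in treated, 12.63 to 13.17 in aged hearts and 11.65 to 12.33 in young ones (1.04, adjusted p = 0.0215), and its other probe differed by 0.83 (adjusted p = 0.0701). Vgll2, a cofactor of TEAD transcription factors known from skeletal muscle, passed with 2 of its 3 probes. The probe with the larger difference stood at 6.14, 5.90, 6.52 and 5.80 in treated, 7.20, 5.77, 6.17 and 5.97 in aged and 4.09, 4.09, 4.25 and 4.17 in young hearts, and was at least 2.27-fold higher in treated than in young hearts (1.94, adjusted p = 0.00592). Asb11, a ubiquitin ligase adaptor of muscle, was called with spermidine (1.02, adjusted p = 0.0134) but not without it (0.60, adjusted p = 0.0869). Of 10 measured genes that mark skeletal muscle, Myl1 was the 1 called, the median difference was -0.03, and the summed intensity was 14911 to 17614 in treated, 13940 to 16812 in aged hearts and 12396 to 13973 in young ones. The part of skeletal muscle RNA in the values of Myl1 and Vgll2 was not tested.

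Enzymes of lipid metabolism and protein kinases C contributed 5 further genes. Cds1, which makes CDP-diacylglycerol for phosphatidylinositol, was among the most even of all calls, at 8.62, 8.65, 8.66 and 8.91 in treated, 8.68, 8.96, 8.70 and 8.75 in aged and 7.24, 7.09, 7.24 and 7.66 in young hearts (1.40, SE 0.14, adjusted p = 0.000564). Acsm5, a mitochondrial synthetase for medium-chain acyl-CoA, was higher by 1.5 (adjusted p = 0.00592), and its other probe differed by 0.88 (adjusted p = 0.176). Acsl6, a synthetase for long-chain acyl-CoA, stood at 8.36 to 8.64 in treated, 8.63 to 9.12 in aged hearts and 7.65 to 7.78 in young ones (0.78 with spermidine, adjusted p = 0.0215, and 1.20 without it). Its other probes differed by 0.45 and 0.06 and did not pass. Prkcq and Prkcz, protein kinases C of the theta and zeta type, were higher by 1.18 (adjusted p = 0.00360) and, on its 2 probes, by 1.09 and 0.99 (adjusted p = 0.00796 and 0.00788). Prkcq stood at 7.14 to 7.52 in treated hearts, above every aged array (6.76 to 6.96), while young hearts were at 5.82 to 6.46. The direct difference between treated and aged hearts for Prkcq was 0.40 and did not pass (adjusted p = 0.457).

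Further increases came from genes of varied function. Klk1b26, a tissue kallikrein protease, stood at 7.68, 8.11, 8.16 and 7.75 in treated, 8.93, 8.06, 7.33 and 7.35 in aged and 4.98, 5.24, 4.82 and 4.70 in young hearts, and its difference from young was 2.99 with spermidine (SE 0.29, adjusted p = 0.000564) and 2.98 without it. Csprs stood at 8.01, 8.50, 8.02 and 8.09 in treated, 7.65, 7.46, 8.01 and 8.48 in aged and 5.89, 5.97, 6.00 and 5.55 in young hearts (2.30, adjusted p = 0.000564). Both genes have close relatives in the mouse genome, whose RNA their probes may also catch. Prom2, a membrane protein of cell protrusions, was at least 1.77-fold higher in treated than in young hearts (1.90, adjusted p = 0.000564), although its other probes, which lay near background, differed by 0.14 and 0.06. Sh3gl2, an endophilin of membrane uptake, was higher by 2.02 (adjusted p = 0.0243), while its other probes differed by 0.35 and 0.39 and did not pass. Amy1, an amylase, was higher by 1.26 (adjusted p = 0.0338), Skap2, an adaptor protein of immune cells, by 1.23 (adjusted p = 0.0134), and C130026I21Rik by 1.09 (adjusted p = 0.0438). For Klk1b26, Ccl8, Kcnk1, Acsm5, Serpina1b and C130026I21Rik at least 1 young array lay below the background limit, so their differences rest in part on values below it.

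Among the decreases, Ddc, the decarboxylase that forms dopamine and serotonin, stood at 5.69, 5.29, 4.81 and 4.95 in treated, 5.17, 5.52, 5.45 and 5.03 in aged and 6.85, 6.32, 6.46 and 6.21 in young hearts. Ddc fell by 1.28 with spermidine (SE 0.20, adjusted p = 0.0215) and by 1.17 without it. Its probe exceeded the background limit on 2 of the 4 treated arrays, so the size of the fall rests in part on values below it. The call of Ddc passed in 7 of the 12 fits that left out 1 array. Nle1, a factor of ribosome assembly, fell by 0.78 (adjusted p = 0.0407) on a probe that exceeded the background limit on no array, while its brighter probe differed by -0.40 and did not pass (adjusted p = 0.470).

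**Figure D2:**
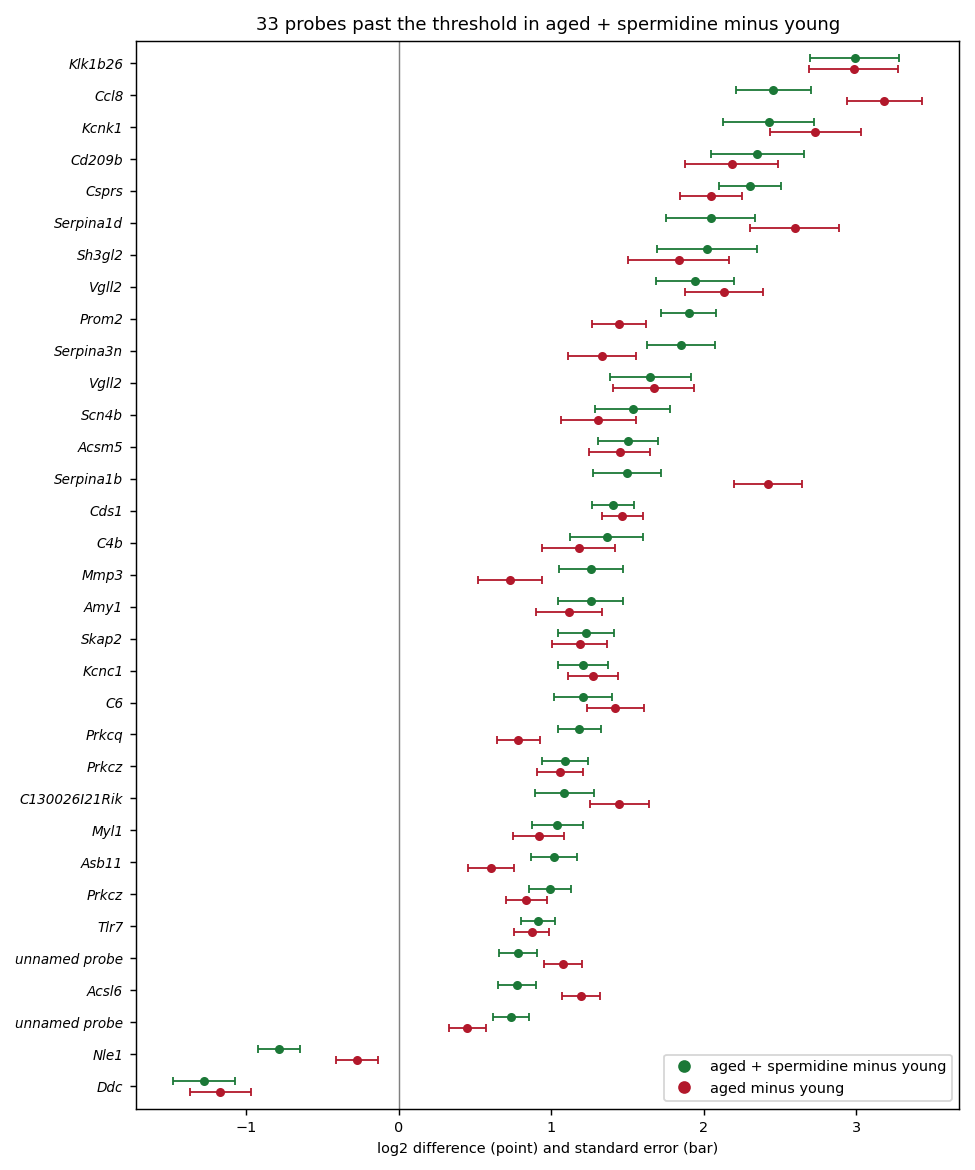
Log2 difference from young hearts (x axis) with its standard error for each of the 33 called probes (rows), for aged hearts with spermidine (green, upper of each pair) and aged hearts (red, lower). The green points were past the threshold by choice of the rows; the red points lie on the same side of 0 in each row, with the widest gaps at Serpina1b (1.5 against 2.42) and Ccl8 (2.46 against 3.18).

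The differences that remained under treatment were read from the probes called between aged and young hearts. Of these 164 probes (0.797% of those tested; 111 or 0.54% higher and 53 or 0.258% lower in aged hearts), 29 also passed between treated and young hearts, all on the same side. They made up 17.7% of the ageing calls and 87.9% of the 33 calls of treated against young hearts. The 29 comprised 28 of the 111 increases and 1 of the 53 decreases, Ddc. A further 88 ageing calls had an unadjusted p below 0.05 between treated and young hearts, where 7.49% of all probes did, and 47 did not reach it. Treated and young arrays did not overlap, on the ageing side, for 99 of the 164, where 5.51% of all probes did not overlap in either direction. The median difference from young of the 111 increases was 0.68 in treated and 1.05 in aged hearts, and that of the 53 decreases was -0.36 in treated and -0.77 in aged hearts. The difference was smaller with spermidine for 144 of the 164. The 164 probes were chosen for their values on the aged arrays, and both comparisons use the same young arrays. Part of each of these counts and medians is therefore set by the choice. The direct test between treated and aged hearts passed for 1 of the 164, where 0.00486% of all probes passed. Its unadjusted p was below 0.05 for 85 of the 164, in 82 of them with treated hearts towards young, and for 9.45% of all probes. This test reuses the aged arrays by which the 164 were chosen. Part of that excess is therefore set by the choice too, and no conclusion is drawn from it. In the other direction, 4 probes were called with spermidine alone: Mmp3, Asb11, Nle1 and 1 unnamed probe. Their difference between treated and aged hearts did not pass for any of the 4 (adjusted p 0.431 to 0.502), so it was not shown that they differ between these groups.

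The count of differences that remain rests on the arrays in the fit. It was 11 of 70 without the arrays with airway transcripts and 13 to 38 with each of the 12 arrays left out in turn. Over all settings these made up 6.8% (without aged replicate 4) to 37.7% (without aged replicate 1) of the ageing calls. Their share of the calls of treated against young hearts was lowest, at 51.0%, with only the arrays of the groups compared, and was 61.9% without treated replicate 1. Of the 33 calls, 15 passed in all 12 of these fits: the probes of Klk1b26, Ccl8, Kcnk1, Cd209b, Csprs, Prom2, Serpina3n, Acsm5, Cds1, Kcnc1, Prkcq and Tlr7, both of Prkcz and 1 of Vgll2.

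Several transcripts with large differences between aged and young hearts did not pass between treated and young hearts, and they differed in how far they stood from young. Ramp1, a co-receptor for the vasodilator CGRP, stood at 6.72, 7.19, 6.36 and 6.70 in treated, 5.97, 6.60, 6.87 and 5.72 in aged and 8.25, 7.72, 7.91 and 7.96 in young hearts. Its treated arrays lay below every young array, with a difference of -1.22 (95% interval -1.74 to -0.70, adjusted p = 0.0861) against -1.67 without spermidine. Cyp2b10, a cytochrome P450, differed by 3.20 with spermidine (95% interval 1.96 to 4.45, adjusted p = 0.0514) and 3.38 without it, at 7.39 to 8.85 in treated, 6.89 to 9.72 in aged hearts and 4.32 to 5.61 in young ones. Its other probe differed by -0.04 with spermidine and -0.01 without it, and exceeded the background limit on 1 aged array only. For Ramp1 and the brighter probe of Cyp2b10 the interval of the treated difference thus lies far from 0 although the threshold was missed.

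Others had smaller differences from young hearts with spermidine than without it. They were named for their values on the aged arrays, so part of this pattern is set by the choice. The direct difference between treated and aged hearts passed for none of them. It was therefore not shown that they differ between these groups. Il6st (gp130), the signalling chain used by Il6-type cytokine receptors, stood at 8.46, 8.27, 8.18 and 9.05 in treated, 7.4, 7.71, 7.54 and 8.54 in aged and 9.08, 9.07, 9.13 and 8.87 in young hearts (-0.55 with spermidine, 95% interval -1.06 to -0.04, adjusted p = 0.630, and -1.24 without it). Ppp1r3b, which directs protein phosphatase 1 to glycogen, stood at 5.18, 5.20, 5.18 and 5.33 in treated, 4.65, 4.5, 4.32 and 4.85 in aged and 5.59, 5.78, 5.80 and 5.61 in young hearts. The 3 groups of Ppp1r3b did not overlap, with treated hearts between the others and no aged array above the background limit, and neither the difference from young (-0.47, 95% interval -0.74 to -0.20, adjusted p = 0.255) nor that from aged hearts (0.64, adjusted p = 0.355) passed. Timm9, a chaperone of mitochondrial protein import, stood at 7.39, 7.09, 7.28 and 7.09 in treated, 5.70, 6.83, 6.47 and 6.57 in aged and 7.32, 7.29, 7.42 and 7.46 in young hearts. Its difference from young was -0.16 with spermidine (95% interval -0.58 to 0.26) and -0.98 without it. A further probe of Timm9 differed by -0.07 with spermidine and by -1.0 without it. The last 2 probes of Timm9 did not follow, at -0.01 and 0.31 with spermidine and 0.07 and 0.65 without it, the second of them below the background limit on every array. Srpr, a subunit of the receptor that docks ribosomes to the endoplasmic reticulum, stood at 8.60, 7.97, 8.81 and 9.04 in treated, 6.5, 7.72, 7.63 and 8.10 in aged and 9.08, 8.71, 9.18 and 9.0 in young hearts (difference from young -0.38, 95% interval -1.03 to 0.26, with spermidine and -1.5 without it). For Timm9 and Srpr the treated difference is compatible with 0 and with a fall of up to 0.58 and 1.03. Spata7, a protein of the cilium base, differed by -0.09 with spermidine (95% interval -0.58 to 0.41) and -1.10 without it. Cap1, a regulator of actin filaments, stood at 4.09, 3.89, 4.09 and 7.55 in treated, 7.59, 8.58, 7.88 and 7.73 in aged and 3.91, 4.39, 4.61 and 3.56 in young hearts. A single treated array thus stood with the aged ones, and no young array exceeded the background limit. Aged hearts were at least 8.21-fold higher than young hearts. The fitted difference of treated from young hearts was 0.79 (95% interval -0.58 to 2.16), and -0.09 without that array. Sorcs2, a sorting receptor, and the cyclin Ccng2 lay below every young array in treated hearts, with differences of -0.77 (95% interval -1.17 to -0.36, adjusted p = 0.206) and -0.60 (95% interval -1.17 to -0.02, adjusted p = 0.647). Eps8l1 differed by -0.66 (95% interval -1.16 to -0.15, adjusted p = 0.501). Without spermidine Ccng2 differed from young by -1.31 and Eps8l1 by -1.12.

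Tmprss4, a protease of the cell surface, was the 1 probe that passed between treated and aged hearts, and not under every setting. It stood at 3.67, 3.78, 4.00 and 3.88 in treated, 5.94, 5.46, 5.31 and 5.24 in aged and 3.29, 3.27, 3.75 and 4.09 in young hearts. Treated and young arrays overlapped, and none of them exceeded the background limit, while all 4 aged arrays did. Aged hearts were at least 1.45-fold higher than treated hearts (fitted difference of treated from aged -1.65, adjusted p = 0.0218). The call was lost with an offset of 4 (adjusted p = 0.243), with replicate number as a block (0.209), and without treated replicate 2 or 3 or aged replicate 1 or 3 (0.0670 to 0.0748). Tmprss4 was at least 1.5-fold higher in aged than in young hearts (adjusted p = 0.000664). A second probe of Tmprss4 differed from young by 0.19 in treated and 1.43 in aged hearts, and the last by -0.05 in treated and -0.14 in aged hearts.

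**Figure D3:**
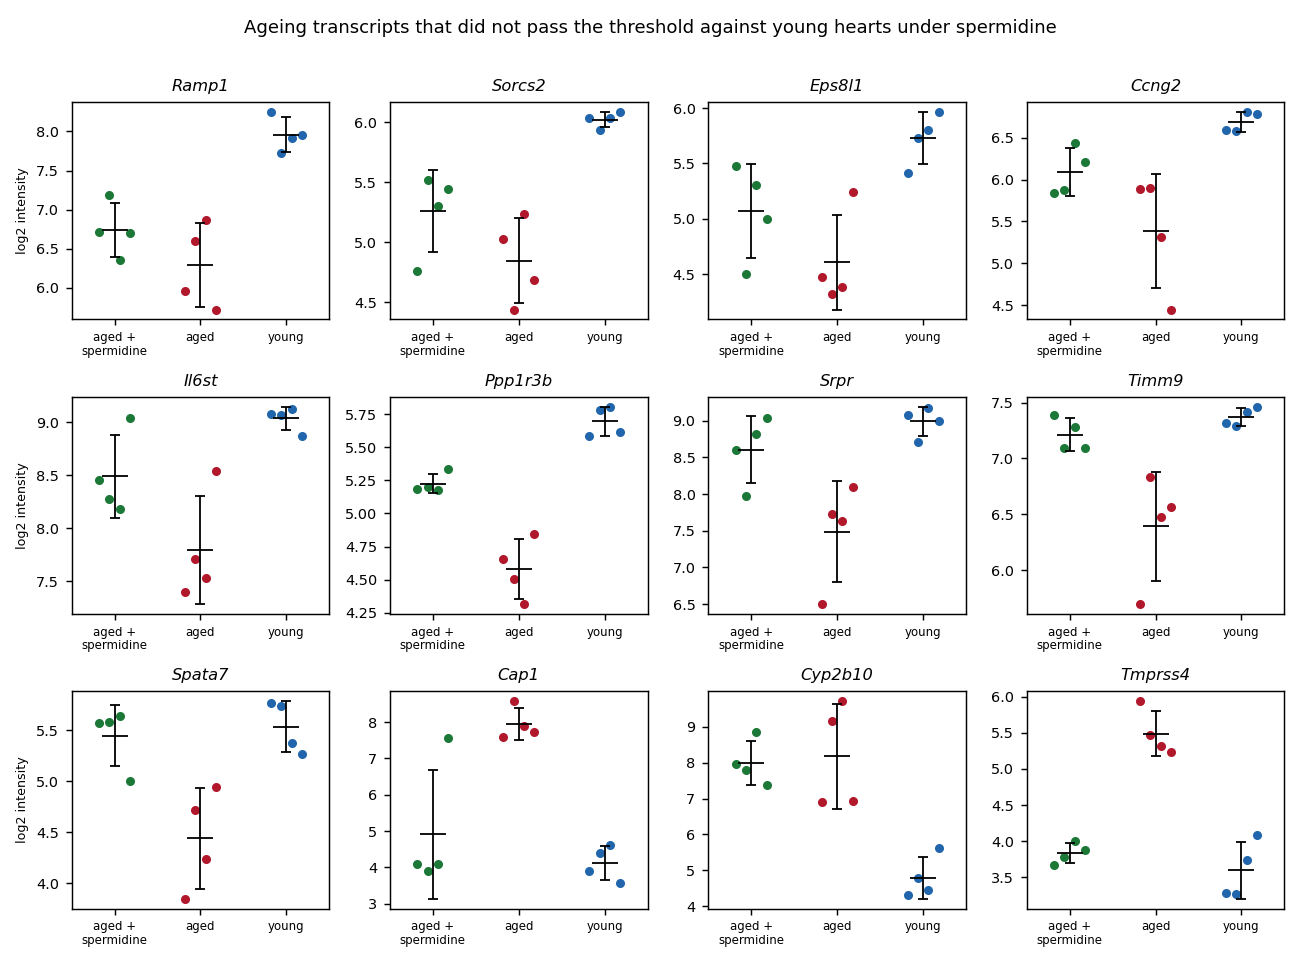
Log2 intensity (y axis) of each array in aged hearts with spermidine, aged hearts and young hearts (x axis) for the 11 named ageing genes that did not pass between treated and young hearts and for Tmprss4; points are arrays, and bars give the mean and SD of 4 arrays. The treated arrays range from Cyp2b10 (7.39 to 8.85, above all young arrays) to Tmprss4 (3.67 to 4.00, among the young arrays), and 1 treated array of Cap1 stands at 7.55.

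Read by gene lists, the erythroid (0.98) and macrophage (0.47) medians stood furthest from 0 in treated against young hearts, followed by the fibroblast (-0.25) and airway (-0.22) lists. In the fibroblast list, 11 of 15 genes differed by less than 0 and none passed, and the aged median was 0.02. Its median difference of treated from aged hearts was -0.04, and its treated median was -0.13 without the arrays with airway transcripts. Fibroblast scores were 0.23, -0.18, -0.12 and -0.40 on the treated arrays and 0.03 to 0.20 on the young ones. With 1 probe for each of 13708 genes, 0.190% of genes passed between treated and young hearts, 7.71% had an unadjusted p below 0.05, 48.4% differed by more than 0, and the median difference was -0.01. Among 20 measured macrophage markers, 19 differed by more than 0, 11 had an unadjusted p below 0.05 and 1, Cd209b, passed. Their median difference from young was 0.47 in treated and 0.59 in aged hearts, and it was 0.45 in treated hearts without the arrays with airway transcripts. F13a1, a coagulation factor of resident macrophages, stood at 9.28, 8.92, 9.71 and 9.17 in treated, 9.20, 9.41, 9.24 and 9.24 in aged and 8.56, 8.49, 8.37 and 8.78 in young hearts, without overlap of treated and young (0.72, adjusted p = 0.133). The Fc receptor Fcgr3 differed by 0.80 (adjusted p = 0.192) and the lectin Clec4n by 0.62 (adjusted p = 0.192). The mean macrophage score, the average deviation of these genes from their 12-array means, was -0.10 to 0.44 in treated, 0.20 to 0.29 in aged hearts and -0.48 to -0.18 in young ones. Treated replicate 3 and young replicate 4, the arrays with airway transcripts, had the highest macrophage score of their groups.

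Among 26 measured chemokines of the CC and CXC families, Ccl8 passed and the median difference from young was 0.19 in treated and 0.44 in aged hearts. Ccl9 stood at 8.18 to 9.11 in treated, 8.24 to 8.76 in aged hearts and 7.38 to 7.68 in young ones (1.12, adjusted p = 0.0613), and Ccl12 and Ccl6 differed by 0.82 and 0.70 and did not pass. Of 17 complement genes, each read by its brightest probe, C4b passed (median 0.19 in treated and 0.27 in aged hearts). The called probe of C6 was not its brightest. Of 19 serpins and acute phase genes, the 3 described above passed (median 0.14 in treated and 0.05 in aged hearts). In the neutrophil list of 11 genes none passed, and 6 differed by more than 0 and 5 by less. The median was 0.12 in treated and 0.37 in aged hearts. Among its members, the calgranulins S100a8 and S100a9 differed by 1.70 (adjusted p = 0.360) and 1.5 (adjusted p = 0.385). S100a8 stood at 7.33, 8.18, 8.40 and 8.47 in treated, 7.10, 6.65, 9.62 and 8.39 in aged and 6.54, 5.85, 6.76 and 6.41 in young hearts. All 5 measured erythroid genes, of 11 listed, differed by more than 0 with an unadjusted p below 0.05 and none passed, with a median of 0.98 in treated and 0.45 in aged hearts. Alas2, the first enzyme of haem synthesis in red cell precursors, stood at 10.67, 10.32, 10.61 and 11.70 in treated, 9.27, 10.60, 10.95 and 10.53 in aged and 8.91, 9.01, 10.14 and 10.04 in young hearts (1.30, adjusted p = 0.371). Treated replicate 4 was the highest array for Alas2, Slc4a1 (the red cell anion exchanger) and Hbb-bt (adult beta globin). How much blood the samples held was not tested.

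**Figure D4:**
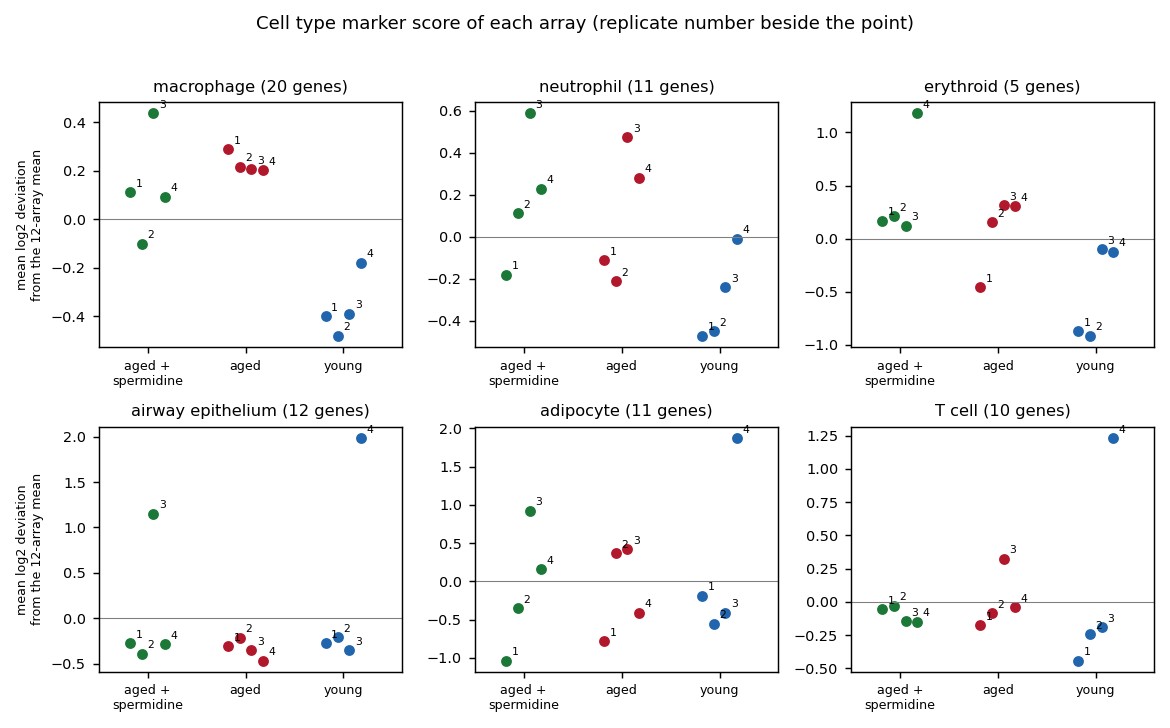
Score of 6 cell type marker lists on each array (y axis, mean log2 deviation of the list's genes from their 12-array mean) in aged hearts with spermidine, aged hearts and young hearts (x axis); each point is an array with its replicate number. Macrophage scores of the treated arrays (-0.10 to 0.44) lie above the young arrays (-0.48 to -0.18), and the airway scores of treated replicate 3 (1.15) and young replicate 4 (1.98) stand apart from the other arrays.

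Lists of antigen presentation and interferon response had medians near 0 in treated hearts and varied widely among arrays. The median over 17 genes of class I presentation was 0.09 in treated and 0.44 in aged hearts, that over 10 class II genes was 0.04 in treated and 0.39 in aged hearts, and that over 36 interferon-stimulated genes was 0.01 in treated and 0.17 in aged hearts. None of these genes passed between treated and young hearts. Aged replicates 3 and 4 had the highest scores of the aged arrays on these lists. The class I score was -0.27, 0.13, 0.69 and 0.76 on the 4 aged arrays. On the same arrays the class II score was -0.53, -0.19, 1.03 and 0.49 and the interferon score -0.30, -0.12, 0.44 and 0.78. Treated replicate 2 had a class I score of 0.52, and the other treated arrays -0.39 to -0.16. H2-T10, a class I gene, was uneven among treated hearts, at 8.09 and 8.71 in replicates 1 and 2 and at 5.38 and 5.33 in replicates 3 and 4, against 6.70 to 8.34 in aged hearts and 5.11 to 5.85 in young ones.

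Clock genes were uneven among treated hearts. None of 19 passed between treated and young hearts, and the median difference was 0.11 in treated and -0.15 in aged hearts. Per2, a repressor of the clock, stood at 7.05, 8.46, 8.55 and 8.43 in treated, 6.60, 7.0, 7.58 and 7.29 in aged and 6.64, 7.33, 6.75 and 6.87 in young hearts (1.23, adjusted p = 0.229). Dbp, a transcription factor driven by the clock, stood at 9.34, 10.96, 10.41 and 10.84 in treated, 8.59, 8.67, 9.29 and 9.41 in aged and 9.85, 9.69, 9.79 and 9.41 in young hearts (0.70, adjusted p = 0.631). Treated replicates 2, 3 and 4 lay above all other arrays for Per2 and Dbp, while replicate 1 lay among or below the young arrays. Nr1d1, a repressor of the clock, was the 1 clock gene called between aged and young hearts (-0.85, adjusted p = 0.0446), and it differed by -0.36 in treated hearts (adjusted p = 0.705). The part of the hour of collection was not tested.

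Of 38 antioxidant and glutathione genes none passed with spermidine, 24 differed by more than 0 and the median was 0.07. Gsta1, a glutathione transferase, stood at 6.52, 6.46, 6.58 and 6.52 in treated, 6.76, 6.27, 5.61 and 6.86 in aged and 5.26, 5.38, 5.55 and 5.45 in young hearts (1.11, adjusted p = 0.0742). Its treated arrays were close together and did not overlap the young arrays. Gsta2 differed by 0.82 (adjusted p = 0.0792) and Nqo1, a quinone reductase, by 0.52 (adjusted p = 0.229). Gsta2 and Nqo1 were called between aged and young hearts, with differences of 0.75 and 0.76. In the list of 35 collagens and matrix genes no gene passed by the probe that stood for it, and the median was -0.12 in treated and -0.10 in aged hearts. Col15a1, a collagen of vessel walls, was below every young array in treated hearts (9.49 to 10.25, against 10.28 to 10.56 in young hearts) and differed by -0.60 (adjusted p = 0.251). Col1a1, the main fibrillar collagen, differed by -0.51 (adjusted p = 0.419), and Timp1, an inhibitor of matrix metalloproteases, by 0.80 (adjusted p = 0.251).

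Genes of polyamine metabolism and autophagy showed no call. Among 17 genes of polyamine metabolism and hypusination the median was 0.05 in treated and 0.02 in aged hearts. Odc1, the enzyme that commits ornithine to polyamines, stood at 10.06 to 10.26 in treated, 10.03 to 10.21 in aged hearts and 10.13 to 10.36 in young ones. Oaz3, an antizyme known from male germ cells, differed by 0.64 (adjusted p = 0.113) at values near the background limit. Over 32 autophagy genes the median was 0.04 in treated and 0.01 in aged hearts, with Sqstm1, a cargo receptor, higher by 0.42 (adjusted p = 0.303), at 11.77 to 12.09 in treated, 11.85 to 12.19 in aged hearts and 11.36 to 11.59 in young ones. The median difference of treated from young hearts was 0.00 over 33 genes of respiratory complex I, 0.00 over 26 genes of fatty acid oxidation and -0.04 over 45 genes of the cytosolic ribosome, and no gene of these lists passed between treated and young hearts. In aged hearts these medians were -0.03, -0.04 and -0.10. The natriuretic peptide gene Nppa stood at 14.31 to 14.49 in treated hearts, at 12.99 on aged replicate 1 and 14.42 to 14.46 on the other aged arrays, and at 14.38 to 14.44 in young hearts. Of the sarcomere genes, Myot, a Z-disc protein, was called between aged and young hearts (1.62) and differed by 1.12 in treated hearts (adjusted p = 0.133). The cell cycle inhibitor Cdkn1a differed by 0.86 (adjusted p = 0.369).

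**Figure D5:**
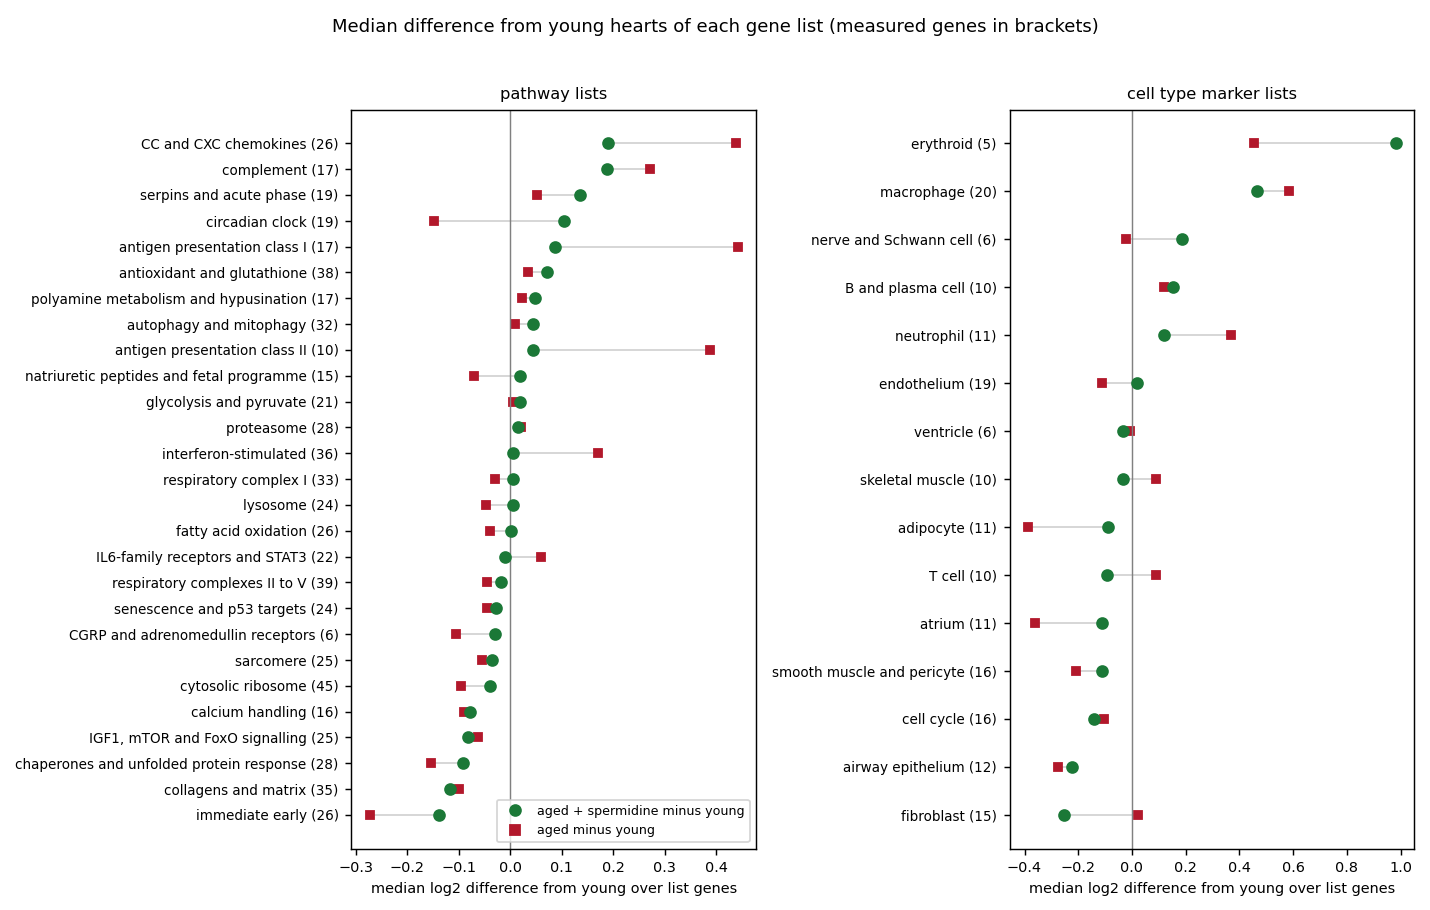
Median log2 difference from young hearts (x axis) over the measured genes of 27 pathway lists (left) and 15 cell type lists (right), for aged hearts with spermidine (green circles) and aged hearts (red squares); the number of measured genes is in brackets. The treated medians lie between -0.14 and 0.19 for the pathway lists, and the erythroid (0.98) and macrophage (0.47) lists stand furthest from 0.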

How the data were processed

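Total RNA of 12 mouse heart samples was measured on Illumina bead arrays. The deposited table holds probe intensities labelled as not normalized; values below 0 (24.1%) show that background had been subtracted, which is read from the values. It gives no detection p-values or control probes, so the planned normexp correction with controls could not be run. Intensities were quantile-normalized, an offset of 16 was added and log2 was taken. The other deposited table holds intensities that the submitters normalized in a way the sources do not state; with the same offset it served as an alternative. Probes above the 25th percentile of an array on at least 4 of 12 arrays were kept (20573, 80.1%).

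Group means were fitted over all 12 arrays with limma 3.58.1 in R 4.3.3, with two-sided moderated tests and Benjamini-Hochberg adjustment over all kept probes, and the procedure was tested on simulated data. The background limit of an array was 3 SD of its values below 0, mirrored. Where a group exceeded it on no array, a fold is given as a lower bound. Bead arrays have no read depth, and precision is set by the 4 arrays in each group.

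Of 25697 probes, 23978 were named through the platform annotation and RefSeq. Each listed gene is represented by its brightest probe. Genes named are the 15 largest increases and decreases past the threshold between treated and young hearts, the 10 largest each way between aged and young hearts, up to 4 listed genes of smallest p per list, a fixed panel, and any call between treated and aged hearts; the other calls between treated and young hearts, and a few listed genes, were named after their values were seen. The members and lists were chosen with earlier results of these data known. The alternatives were scaling, offset, filter, groups in the fit, array weights, replicate number as a block, and single arrays left out. A further one left out both arrays with airway transcripts, known from earlier results of these data.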

Additional observations from a re-analysis of the deposited data

Results flagged for a closer look

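In 9 of 135 groups of 4 arrays (45 named or called probes in 3 groups), 1 array stood apart from the other 3 by Dixon's criterion, which chance alone meets in about 1 of 20 groups. Treated replicate 4 stood apart for 4 genes: Cap1 (7.55, the other treated arrays 3.89 to 4.09), Spata7 (5.00, the others 5.57 to 5.64), Ppp1r3b (5.33, the others 5.18 to 5.20) and Cds1 (8.91, the others 8.62 to 8.66). In aged hearts, replicate 1 was low for C4b (8.04, the others 9.05 to 9.20) and replicate 4 was high for Eps8l1 (5.24, the others 4.32 to 4.48). In young hearts, replicate 3 was high for Ccl8 (5.49, the others 4.88 to 4.98), replicate 4, which carries airway transcripts, was high for Amy1 (6.27, the others 5.53 to 5.61), and replicate 2 was low for the unnamed probe ILMN_2617005 (6.68, the others 7.05 to 7.11).

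Tmprss4 differed between the aged groups by a direct test: the difference of treated from aged hearts was -1.65 (limma, adjusted p = 0.0218), on a probe that no treated or young array measured above background. It did not pass with an offset of 4 (0.243), with replicate number as a block (0.209) or without any one of treated replicates 2 and 3 and aged replicates 1 and 3 (0.0670 to 0.0748).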

How the results depend on the processing

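Counts of calls depended on the settings. Treated against young hearts gave 33 probes, against 51 with only the arrays of these groups, 105 with array quality weights, 12 without the arrays with airway transcripts and 16 to 48 with 1 array left out (18 without treated replicate 4, 19 without treated replicate 3, 16, 20 and 17 without young replicates 1, 2 and 3). Aged against young hearts gave 164, against 299 in the submitters' table, 70 with an offset of 4, 378 with an offset of 50, 90 without a filter, 331 with the stricter filter, 97 with only these arrays, 372 with weights, 70 without the airway arrays and 41 to 559 with 1 array left out. Treated against aged hearts gave 1, against 0 with an offset of 4 and 0 to 49 with 1 array left out. Ageing calls that remained numbered 29, against 19 with an offset of 4, 67 with weights, 11 without the airway arrays and 13 to 38 with 1 array left out. Groups that did not overlap numbered 1133, against 2847 without the airway arrays and 1133 to 2098 with 1 array left out, where fewer arrays make separation easier. Listed genes called numbered 7, against 11 in the submitters' table, 3 with an offset of 4, 11 with the stricter filter, 14 with only these arrays, 18 with weights, 2 without the airway arrays and 3 to 10 with 1 array left out. In the main fit, 26 of all 13708 genes (0.190%) passed between treated and young hearts with 1 probe each. The lists were chosen with earlier results of these data known, so no conclusion is drawn from the count of listed genes. With 1 array left out, the difference of treated from young hearts was -0.0938 to 1.1253 for Cap1 and -0.1754 to 0.0629 for Spata7, and both changed sign without treated replicate 4 (-0.0938 for Cap1 and 0.0629 for Spata7). Beyond the construction of the alternatives, the causes were not tested.

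With replicate number as a block, treated against young hearts gave 30 calls, 27 of them among the 33, aged against young hearts 96 and treated against aged hearts 0. Deviations of same-numbered arrays correlated at -0.33 to 0.13 between treated and young, -0.11 to 0.21 between treated and aged and -0.06 to 0.04 between aged and young hearts. Arrays of different numbers were not set against these, so the values cannot decide whether the numbers pair the samples.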

Other observations

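For 12 probes, chosen after their values were seen, the widest gap between neighbouring values of the 12 arrays was at least 1 and separated all aged from all young arrays. Each treated array then lies on one side of it. All 4 treated arrays lay on the aged side for Ccl8, Cd209b, Csprs, Cyp2b10, Klk1b26, Serpina1d and Vgll2. For Tmprss4 none did, and the remaining probes, of which 3 are described here, split the treated arrays. Rab6b, a GTPase of the Golgi, stood at 8.25, 5.41, 8.08 and 5.24 in treated, 5.02 to 6.35 in aged hearts and 7.63 to 7.78 in young ones. An unnamed probe was at 4.76, 4.56, 4.17 and 7.89 in treated, 7.77 to 8.90 in aged hearts and 3.90 to 4.32 in young ones, so that treated replicate 4 stood with the aged arrays, as it did for Cap1. Alad, an enzyme of haem synthesis also picked after its values were seen, showed the same array apart, at 10.41, 10.44, 10.52 and 11.36 in treated, 11.17 to 11.57 in aged hearts and 10.22 to 10.51 in young ones.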
